A study of Mus musculus with 4 samples.

Results

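The 31 genes described here are transcriptional targets of p53, the transcription factor that answers DNA damage and other stress by arresting or killing the cell. They were chosen by symbol from a list of genes for p53-induced arrest, apoptosis and repair. Of 52636 gene identifiers in each table, 31 matched a symbol of the list, so that no member was missing, and 31 passed the filter on low counts among 16557 genes tested. RNA-seq read out the transcripts of mouse otic cells, collected by fluorescence-activated sorting from otocysts, the vesicles that give rise to the inner ear. Both groups came from tissue labelled otic ectoderm, with 3000 cells per library. Of 4 libraries, 2 carry the label Brg1cKO, a conditional knockout of Brg1, the ATPase of a chromatin remodelling complex, encoded by Smarca4. The other 2 carry the label Control. The Cre line, the alleles, the strain, the age of the embryos, the sorting marker, and whether replicates came from separate embryos or sorts are not stated in the labels. The p-values below therefore cover the variation between these 4 libraries, and that variation may be technical.

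In unstressed cells p53 is kept scarce by Mdm2, a ubiquitin ligase whose gene is itself a p53 target, so that a rise in p53 raises its own inhibitor. When p53 is stabilised, it binds paired copies of a short palindromic half-site near its targets. Those targets include Cdkn1a, which halts the cell cycle, the mitochondrial killers Bax, Bbc3 and Pmaip1, the sestrins that restrain growth signalling, and genes for DNA repair. In mouse embryos, excess p53 activity is known to disturb the development of the head, the ear included.

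The sequences that follow show what the half-site looks like at members whose levels are given further on, Cdkn1a, Mdm2 and Sesn1 with a whole window and the others with the site and its flanks. Windows ran from 250 bases before to 50 bases after an annotated start in RefSeq (build GRCm38.p6) and are written 5′ to 3′ on the strand of the gene, with exact matches to the p53 consensus half-site, 10 bases long, in capitals. The half-site reads the same on both strands.
Cdkn1a, upstream start, chr17:29090729-29091028, plus strand: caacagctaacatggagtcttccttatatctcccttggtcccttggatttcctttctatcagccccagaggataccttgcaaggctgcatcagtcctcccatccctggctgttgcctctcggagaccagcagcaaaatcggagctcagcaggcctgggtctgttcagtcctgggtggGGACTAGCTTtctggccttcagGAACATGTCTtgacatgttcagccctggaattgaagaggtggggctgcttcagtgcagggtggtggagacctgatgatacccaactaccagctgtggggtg
Mdm2, chr10:117710709-117711008, minus strand: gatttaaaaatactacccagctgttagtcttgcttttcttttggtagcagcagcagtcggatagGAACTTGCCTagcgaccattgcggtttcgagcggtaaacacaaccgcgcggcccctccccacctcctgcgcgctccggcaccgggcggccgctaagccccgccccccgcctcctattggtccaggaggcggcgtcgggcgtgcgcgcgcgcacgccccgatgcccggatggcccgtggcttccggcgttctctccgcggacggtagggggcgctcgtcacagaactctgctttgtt
Sesn1, downstream start, chr10:41887189-41887488, plus strand: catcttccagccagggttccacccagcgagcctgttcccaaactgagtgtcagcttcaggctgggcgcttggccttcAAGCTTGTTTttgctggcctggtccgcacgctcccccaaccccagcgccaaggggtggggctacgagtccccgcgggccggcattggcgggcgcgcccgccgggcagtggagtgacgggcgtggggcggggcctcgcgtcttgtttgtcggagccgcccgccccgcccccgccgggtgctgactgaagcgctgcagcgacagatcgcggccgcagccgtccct
Bax, chr7:45467075-45467114, minus strand: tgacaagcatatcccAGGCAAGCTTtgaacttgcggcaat
Aen, chr7:78895922-78895961, plus strand: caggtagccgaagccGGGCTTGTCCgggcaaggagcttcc
Ei24, chr9:36797320-36797359, minus strand: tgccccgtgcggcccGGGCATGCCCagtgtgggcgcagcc
Ccng1, chr11:40755447-40755486, minus strand: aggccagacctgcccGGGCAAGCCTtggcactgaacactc
Ckap2, chr8:22185998-22186037, minus strand: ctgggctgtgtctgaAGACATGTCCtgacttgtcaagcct
Gtse1, chr15:85859940-85859979, plus strand: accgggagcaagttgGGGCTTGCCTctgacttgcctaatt
Upstream of the more distal of 2 annotated starts of Cdkn1a, the window held 2 half-sites with 12 bases between them, the first beginning at base -73 from the start and the second at base -51. Such a pair, allowing a gap of up to 13 bases, was found in 24 of 32851 windows of all genes (0.0731%). At least 1 half-site was found in 2745 of those windows (8.36%). RefSeq windows were held for 24 of the 31 members, in 34 windows, of which 13 windows of 12 genes held a half-site (38.2% of the windows), with the 2 overlapping windows of Aen sharing the same site. Per gene, 50% of these 24 members had a half-site in a window, against 9.55% of 27025 genes. A match is a description of these letters and not evidence of binding, and a window without a match says only that the letters were absent there. Near matches were not searched for, at Cdkn1a or elsewhere, and are not in capitals.

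The Brg1cKO-labelled libraries were sequenced to 29361382 and 25875555 reads in genes, against 15357265 and 19132360 for the controls. Levels are given in CPM, a gene's reads divided by the total of its library after TMM scaling and set to a common total, on which scale 1 read was worth 0.0342 and 0.0386 CPM in the Brg1cKO-labelled libraries and 0.0650 and 0.0531 CPM in the controls. Smarca4 stood at 891 and 848 CPM in the Brg1cKO-labelled libraries, against 816 and 815 CPM in the controls (log2 fold change 0.09 ± 0.0995 SE, adjusted p = 0.817, edgeR). The labels do not say which exons were removed, and reads from the remaining exons are counted too, so this level is a poor check of the knockout and every direction given here depends on the labels. Markers of some cell types also stood apart between the groups. The summed level of 20 genes of otic epithelium was 1338 and 1379 CPM in the Brg1cKO-labelled libraries and 4033 and 4112 CPM in the controls, with 19 of 20 log2 fold changes negative. For 17 white blood cell genes the sums were 1983 and 1881 CPM against 442 and 527 CPM, all positive. For 14 genes of contractile muscle they were 921 and 914 CPM against 199 and 156 CPM, with 11 of 12 tested genes positive. For 13 red blood cell genes they were 232 and 218 CPM against 639 and 670 CPM, with 9 of 11 tested genes negative and a median log2 fold change of -1.49. Other lists differed less. For 18 endothelial genes the sums were 4696 and 4589 CPM against 4291 and 3886 CPM, with 13 positive and 5 negative. For 16 genes of head mesenchyme they were 3450 and 3566 CPM against 4314 and 4572 CPM, with 8 positive and 8 negative. Genes of non-otic cell types thus had reads in both groups. No gene of the otic and white blood cell lists was at 0 in a whole group, 1 muscle gene in each group was, and 1 red blood cell gene was in the Brg1cKO-labelled libraries. In such bulk samples fewer cells of a type and less RNA per cell cannot be told apart, and the part of this mix in the values of the p53 targets was not tested.

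As a group, the p53 targets showed no common direction. Their summed level was 1252 and 1245 CPM in the Brg1cKO-labelled libraries and 1377 and 1269 CPM in the controls. The members Fas, Ano3, Ddit4l and Dcxr had under 10 reads in each control and passed the filter through the Brg1cKO-labelled libraries alone, so they had to come out higher, and each count that follows is also given over the other 27. The fitted log2 fold changes, of Brg1cKO over Control, were positive for 18 members and negative for 13, with a median of 0.23 (quartiles -0.37 and 0.79), beside 51.5% positive and a median of 0.03 over all genes tested. Over the other 27 members, 14 were positive and 13 negative, with a median of 0.05. None of the 31 passed at an adjusted p under 0.05 (edgeR quasi-likelihood test, Benjamini-Hochberg), where 0.0302% of all genes passed, and the lowest adjusted p was 0.264, for Psrc1. At an unadjusted p under 0.05, 4 members were higher (Sesn1, Phlda3, Fas and Ano3) and 3 lower (Psrc1, Plk2 and Eda2r), beside 7.66% and 4.8% of all genes. Fas and Ano3 are fixed by the filter, and over the other 27 members the counts were 2 higher (7.41%) and 3 lower (11.1%). Both Brg1cKO-labelled libraries lay above both controls for 11 members (35.5%, beside 26.3% of all genes) and below both for 4 (12.9%, beside 17.8%), and the groups overlapped for the other 16 (51.6%, beside 55.9%). Over the 27 members not fixed by the filter, 7 lay above (25.9%), 4 lay below (14.8%) and 16 overlapped (59.3%). Genes fixed by the filter were not taken out of any of the shares over all genes. Those shares and the values over the 27 members are therefore not from like sets.

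**Figure D1:**
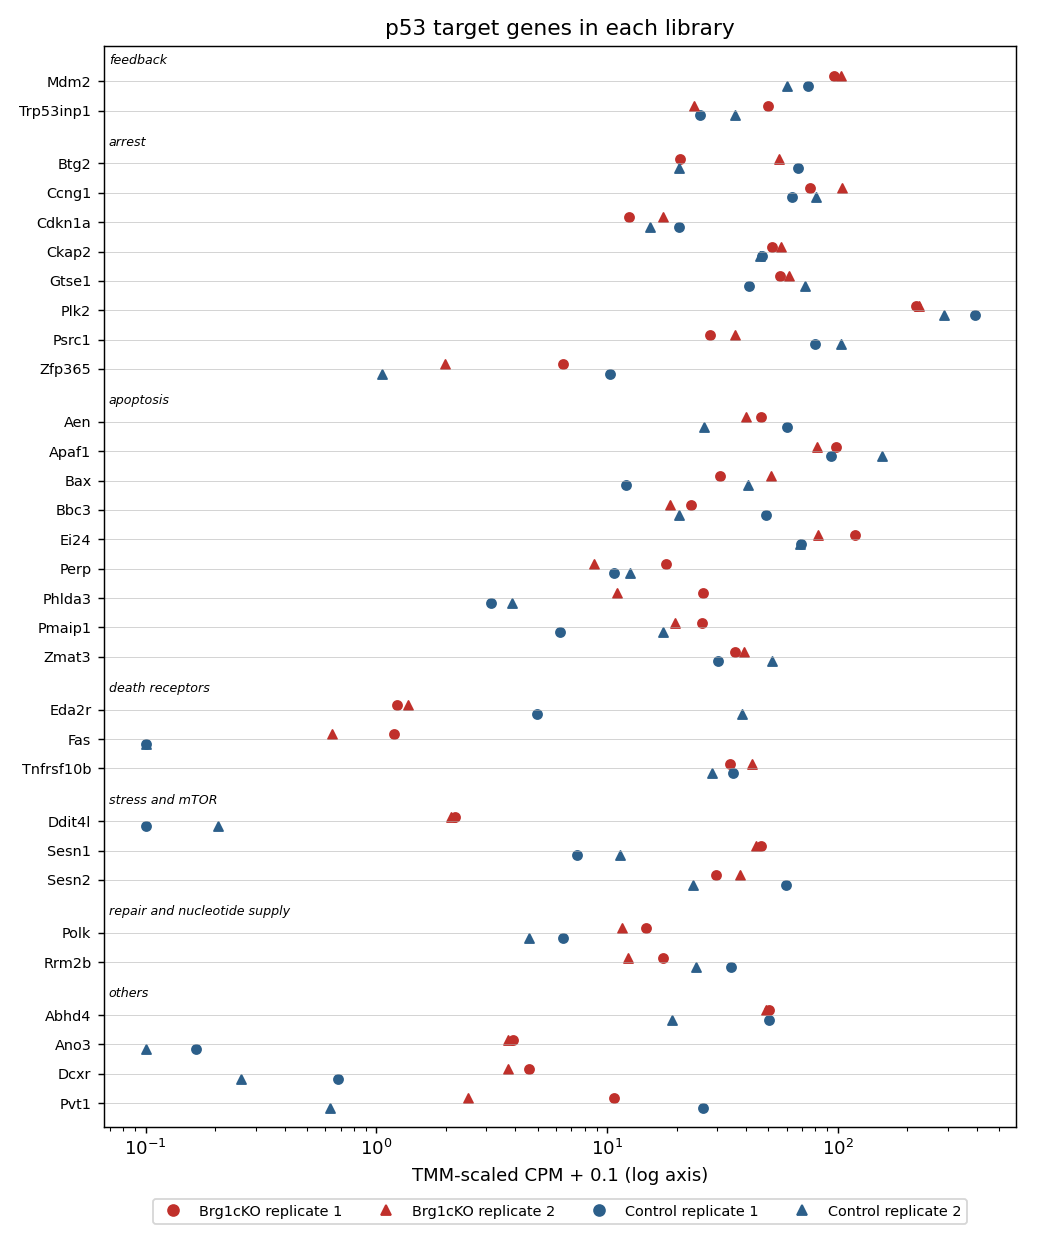
Levels of the 31 p53 target genes in each library as TMM-scaled CPM plus 0.1, on a log axis, grouped by role. For each gene the Brg1cKO-labelled libraries (red) are drawn above the Control libraries (blue), with circles for replicate 1 and triangles for replicate 2. Sesn1 and Psrc1 show separated groups with close replicates, while Cdkn1a, Bbc3 and Btg2 show groups that overlap.

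The absence of calls depended on the controls and on the tool. Without Control replicate 1 the same test called 7 of 31 members (22.6%, beside 17.6% of all genes), and without Control replicate 2 it called 8 (25.8%, beside 16.9%). Psrc1, Sesn1 and Phlda3 were called in both cases and also among the 8 members called by DESeq2, of which Fas, Ano3 and Ddit4l are fixed in direction by the filter. Over the 27 members that are not, DESeq2 called 5 (18.5%). It called 14.6% of all genes, a share from which genes fixed by the filter were not taken out. The 5 members were Psrc1, Sesn1, Phlda3, Plk2 (adjusted p = 0.00435) and Eda2r (0.00118). With either of the Brg1cKO-labelled libraries left out, 0 members were called, where 0.237% and 0.173% of all genes were. A lone library in a group is assumed to vary like the other group. With a control left out, the p-values here and below therefore hold no variation between controls. The controls varied more between replicates than the Brg1cKO-labelled libraries, as given further on.

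Mdm2, the ubiquitin ligase that closes the p53 feedback loop, stood at 96.1 and 103 CPM in the Brg1cKO-labelled libraries, against 73.9 and 60.3 CPM in the controls. The groups did not overlap, and the log2 fold change of 0.57 ± 0.289 (SE, 95% interval -0.11 to 1.25) did not pass (adjusted p = 0.515, edgeR). Without Control replicate 1 it passed (adjusted p = 0.0406), and its adjusted p ranged from 0.0406 to 1 over the alternatives tried. Trp53inp1, whose product promotes p53 activity and cell death, stood at 49.7 and 23.7 CPM against 25.2 and 35.7 CPM. The highest and the lowest of the 4 values were both from Brg1cKO-labelled libraries, so the groups overlapped.

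Among the 8 arrest and cell cycle genes, 3 log2 fold changes were positive and 5 negative. Cdkn1a, the cyclin-dependent kinase inhibitor p21 and the best known target of p53, stood at 12.3 and 17.4 CPM in the Brg1cKO-labelled libraries and at 20.4 and 15.2 CPM in the controls. The groups overlapped, and the log2 fold change of -0.26 ± 0.710 (SE) had a 95% interval of -1.93 to 1.41, wide enough to hold a 2-fold change in either direction. Ccng1, a cyclin that p53 induces, overlapped too, at 75.6 and 104 CPM against 63.5 and 80.6 CPM. Btg2, an antiproliferative gene, showed how far replicates could part, with 20.5 and 55.5 CPM against 66.9 and 20.4 CPM. Plk2, a polo-like kinase, stood at 217 and 225 CPM in the Brg1cKO-labelled libraries, against 392 and 289 CPM in the controls. The groups were apart, with a log2 fold change of -0.62 ± 0.190 (SE, 95% interval -1.07 to -0.18, unadjusted p = 0.0132, adjusted p = 0.365, edgeR). Per kilobase of exon it had the highest mean level of the 31 members in both groups, at 49.2 CPM per kb in the Brg1cKO-labelled libraries and 75.8 CPM per kb in the controls. Psrc1 (chromosome 3, 108383839 to 108388231 on the plus strand of mm10) encodes a microtubule-binding protein of the mitotic spindle, and stood at 27.7 and 35.9 CPM against 79.2 and 103 CPM. Both Brg1cKO-labelled libraries were thus far below the lower control, and the log2 fold change of -1.52 ± 0.360 (SE, 95% interval -2.36 to -0.67) had the smallest p of the members (unadjusted p = 0.00368, adjusted p = 0.264, edgeR). Psrc1 passed without Control replicate 1 (adjusted p = 9.01e-06) and without Control replicate 2 (0.0023), and Plk2 without Control replicate 2 (1.13e-06). The adjusted p of both was 1 when either of the Brg1cKO-labelled libraries was left out.

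The other mitotic members did not stand with Psrc1. Gtse1, a G2 and S phase protein that binds p53, stood at 56.0 and 61.1 CPM in the Brg1cKO-labelled libraries and 41.3 and 72.1 CPM in the controls, and Ckap2, a spindle protein, at 51.9 and 56.7 CPM against 46.8 and 46.1 CPM. The groups overlapped for Gtse1 and were apart, in the opposite direction to Psrc1, for Ckap2. Over 20 other genes of G2 and mitosis, 15 log2 fold changes were positive and 5 negative with a median of 0.16. Over all genes tested, 51.5% were positive and the median was 0.03. Of the positive genes, Kif11 had 2 and 7 reads in the controls and passed the filter through the Brg1cKO-labelled libraries alone. Of the 20 genes, 0 had an unadjusted p under 0.05. Zfp365, a zinc finger gene linked to genome stability, varied as much within groups as between them, at 6.35 and 1.89 CPM against 10.2 and 0.955 CPM.

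**Figure D2:**
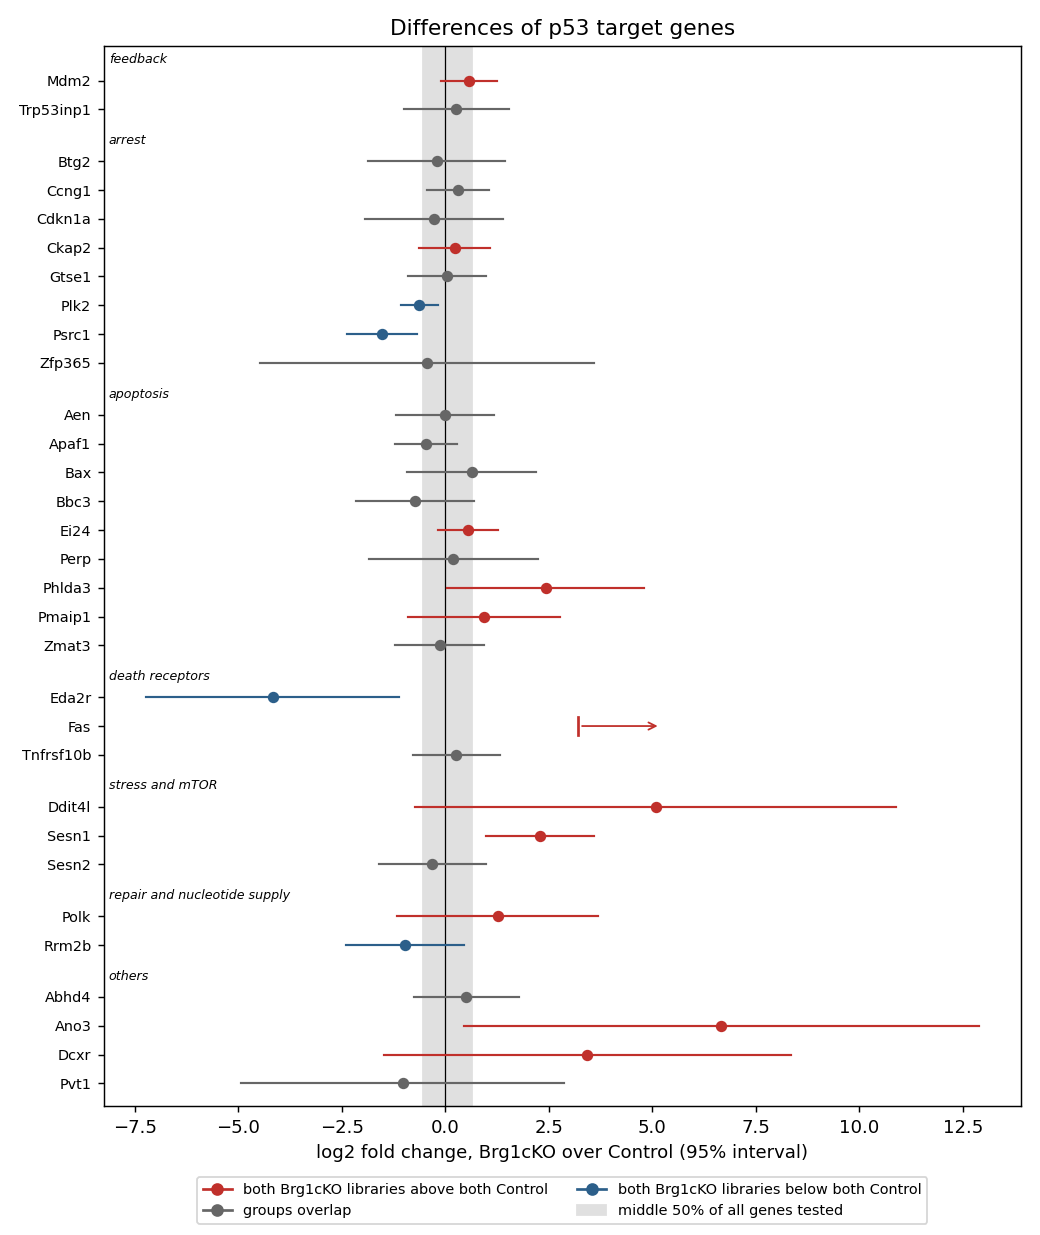
Log2 fold changes of Brg1cKO over Control for the 31 p53 target genes with 95% intervals from the edgeR fit, grouped by role, with the middle 50% of all genes tested as a grey band. Red marks genes for which both Brg1cKO-labelled libraries lay above both controls, blue those below and grey those that overlapped; Fas, at 0 in both controls, is drawn as a lower bound. Most intervals span 0, and those of Sesn1, Phlda3, Ano3, Psrc1, Plk2 and Eda2r do not. Ano3 passed the filter through the Brg1cKO-labelled libraries alone, so the side of its interval was fixed.

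Among the 9 apoptosis genes, 5 log2 fold changes were positive and 4 negative. Bax, which opens the mitochondrial outer membrane, stood at 30.8 and 51.0 CPM in the Brg1cKO-labelled libraries and 12.0 and 40.5 CPM in the controls, with overlap. Bbc3, the BH3-only protein PUMA, stood at 23.1 and 18.7 CPM against 48.8 and 20.5 CPM. For Pmaip1, the BH3-only protein NOXA, the values were 25.6 and 19.7 CPM against 6.17 and 17.3 CPM. The 3 killers thus did not share a direction, with log2 fold changes of 0.64 ± 0.661 for Bax, -0.73 ± 0.601 for Bbc3 and 0.95 ± 0.780 for Pmaip1 (SE), and each interval held 0. Apaf1, the scaffold of the apoptosome, stood at 98.2 and 81.3 CPM against 93.2 and 155 CPM. Without Control replicate 2, Bax (log2 fold change 1.75, adjusted p = 0.00491), Bbc3 (-1.24, 0.0301) and Pmaip1 (1.85, 0.0425) passed, and without Control replicate 1, Apaf1 passed (-0.78, 0.00525) while the log2 fold changes were 0.033 for Bbc3, 0.017 for Bax and 0.39 for Pmaip1.

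Phlda3, which blocks the survival kinase Akt at the membrane, stood at 25.9 and 10.9 CPM in the Brg1cKO-labelled libraries, against 3.05 and 3.77 CPM in the controls. The groups were apart, with a log2 fold change of 2.43 ± 1.02 (SE, 95% interval 0.05 to 4.81, unadjusted p = 0.0466, adjusted p = 0.385, edgeR). It passed without Control replicate 1 (adjusted p = 0.0291) and without Control replicate 2 (0.0175). Ei24, a protein of the endoplasmic reticulum linked to growth arrest and autophagy, was also apart, at 119 and 81.8 CPM against 69.3 and 68.6 CPM, without passing (adjusted p = 0.584). Aen, an apoptosis-enhancing nuclease, had means that differed by less than the spread between controls, 43.0 ± 4.45 CPM in the Brg1cKO-labelled libraries and 43.2 ± 24.0 CPM in the controls (SD, n = 2 each). Zmat3, an RNA-binding zinc finger protein, stood at 35.9 and 39.0 CPM against 30.1 and 51.7 CPM, and Perp, a desmosomal membrane protein, at 17.9 and 8.72 CPM against 10.7 and 12.5 CPM. For both of these genes the groups overlapped.

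The 3 receptor genes of the tumour necrosis factor receptor family each gave a different picture. Fas, the receptor for Fas ligand, had 32 and 14 reads in the Brg1cKO-labelled libraries (1.09 and 0.540 CPM) and 0 reads in both controls. Against a floor of 3 reads over the control group (0.0876 CPM), that is at least 9.32-fold higher, with counting error alone considered. Fas passed the filter through the Brg1cKO-labelled libraries alone, so its direction was fixed and this bound does not support a difference. Thinned to the depth of the shallowest library, Fas had 20 and 5 reads in the Brg1cKO-labelled libraries and 0 in the controls. Eda2r, the receptor for the A2 isoform of ectodysplasin, stood at 1.13 and 1.27 CPM in the Brg1cKO-labelled libraries, against 4.87 and 38.5 CPM in the controls. The groups were apart, with a log2 fold change of -4.17 ± 1.30 (SE, unadjusted p = 0.0145, adjusted p = 0.368, edgeR), and Control replicate 2 supplied most of the control reads, 726 against 75 in Control replicate 1. Without Control replicate 1 Eda2r passed (adjusted p = 4.67e-09), and without Control replicate 2 its log2 fold change was -2.04 (adjusted p = 0.53). Tnfrsf10b, the mouse receptor for the death ligand TRAIL, stood at 34.0 and 42.3 CPM against 35.0 and 28.3 CPM, with overlap.

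The sestrins, stress proteins that lower mTORC1 signalling, parted from each other. Sesn1 (chromosome 10, 41809935 to 41908424 on the plus strand of mm10) stood at 46.6 and 44.0 CPM in the Brg1cKO-labelled libraries, against 7.28 and 11.3 CPM in the controls. The gap between groups was many times the gap between replicates in the Brg1cKO-labelled libraries, and the log2 fold change was 2.28 ± 0.554 (SE, 95% interval 0.98 to 3.58, unadjusted p = 0.00411, adjusted p = 0.272, edgeR). It passed without Control replicate 1 (adjusted p = 0.00049), without Control replicate 2 (2.34e-05) and with DESeq2 (4.49e-06). Sesn2 stood at 29.5 and 37.6 CPM against 59.8 and 23.4 CPM, so that the groups overlapped. Ddit4l, a relative of the mTORC1 inhibitor Ddit4, had 61 and 52 reads in the Brg1cKO-labelled libraries against 0 and 2 reads in the controls, which is a ratio of 35.0 after scaling (95% exact binomial interval 9.48 to 293, counting error only). DESeq2 gave adjusted p = 0.0401 for Ddit4l, 0.0453 for Fas and 0.00599 for Ano3, but all 3 passed the filter through the Brg1cKO-labelled libraries alone, so these values do not support a difference.

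In DNA repair and nucleotide supply, the 2 members lay on opposite sides of 0 without passing. Polk, a DNA polymerase that copies past damaged bases, stood at 14.7 and 11.5 CPM in the Brg1cKO-labelled libraries and 6.37 and 4.51 CPM in the controls. Rrm2b, the p53-inducible subunit of ribonucleotide reductase, stood at 17.4 and 12.3 CPM against 34.4 and 24.1 CPM. Neither pair of groups overlapped, with log2 fold changes of 1.27 ± 1.04 for Polk and -0.98 ± 0.608 for Rrm2b (SE; adjusted p = 0.747 and 0.634, edgeR). Rrm2b shares 734 exonic bases with Gm49085 on the opposite strand, and reads of the pair could not be told apart if strand was not used in the counting. The same holds for Cdkn1a, with 273 exonic bases shared with AC167363.2, and for Ei24, with 324 shared with Gm26787. It also holds for Ano3, with 61 shared with Muc15, and for Pvt1, with 109 shared with H2afy3. Bax shares 192 exonic bases with Gm45808 on the same strand, where strand cannot tell reads apart. Pvt1 shares bases in this way with Gm27718, Gm27913 and Gm27957.

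Among the members with other or less settled roles, Ano3, of the anoctamin family of membrane proteins, had 112 and 94 reads in the Brg1cKO-labelled libraries and 1 and 0 reads in the controls. After scaling that is a ratio of 128 (95% exact binomial interval 22.7 to 5071, counting error only). Thinned to the same depth, Ano3 had 65 and 53 reads in the Brg1cKO-labelled libraries against 1 and 0. Dcxr, a carbonyl reductase of xylulose metabolism, stood at 4.51 and 3.63 CPM against 0.585 and 0.159 CPM, from 9 and 3 reads in the controls. Both genes were thus close to the limit of detection in the controls. Both passed the filter through the Brg1cKO-labelled libraries alone, so they had to come out higher and these values do not support a difference. Abhd4, a lipid hydrolase, stood at 50.2 and 48.8 CPM against 50.4 and 19.0 CPM, and Pvt1, a long noncoding RNA next to Myc, at 10.6 and 2.39 CPM against 26.0 and 0.531 CPM. The groups overlapped for both, and the controls held 401 and 10 reads of Pvt1. Abhd4 passed without Control replicate 1 (log2 fold change 1.38, adjusted p = 0.01) and stood at -0.046 without Control replicate 2. Pvt1 passed without Control replicate 2 (-2.02, 0.0336) and stood at 3.61 without Control replicate 1.

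**Figure D3:**
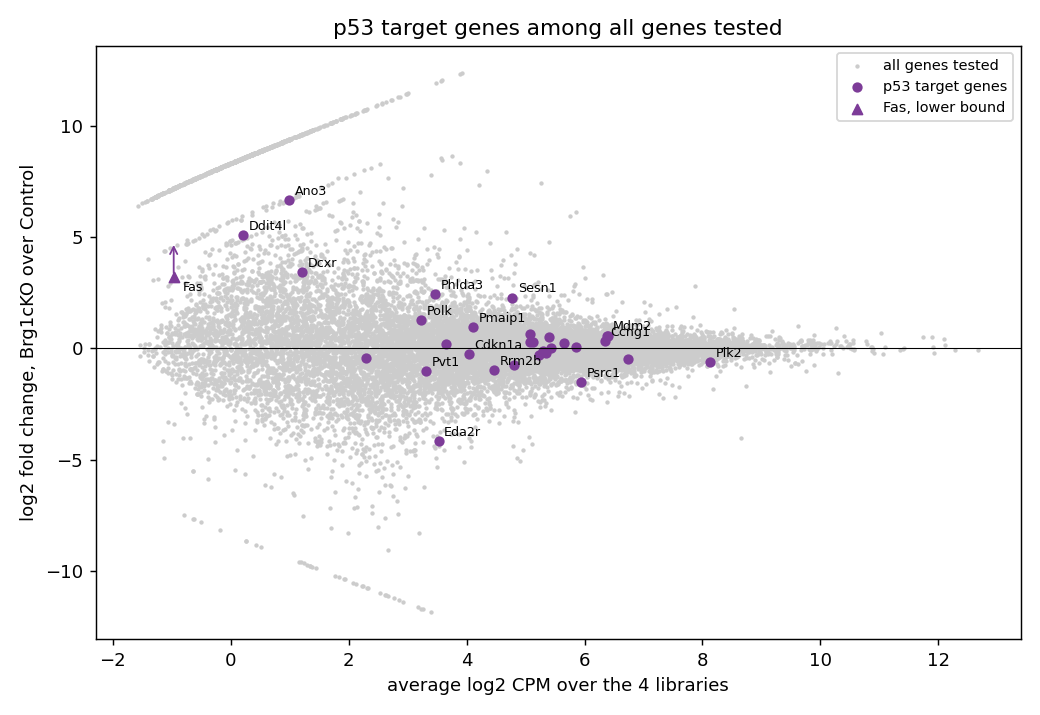
Log2 fold change of Brg1cKO over Control against the average log2 CPM over the 4 libraries, with all 16557 genes tested in grey and the p53 target genes in purple. The p53 target genes lie within the cloud of all genes, the largest positive values belong to members with few reads, and the straight edges are genes at 0 in a group, whose fitted values depend on the prior count; Fas is drawn at its lower bound.

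Replicates of the members agreed less well in the controls. Of the 31 members, 7 differed by over 2-fold between the Brg1cKO-labelled libraries. In the controls 11 of 28 differed by over 2-fold, and the other 3 were at 0 in at least a control. The median absolute log2 ratio between replicates was 0.35 in the Brg1cKO-labelled libraries and 0.76 in the controls, beside 0.40 and 0.89 over all genes tested. The members thus had about the spread of other genes, and Pvt1, Zfp365 and Eda2r had the widest gaps between controls.

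**Figure D4:**
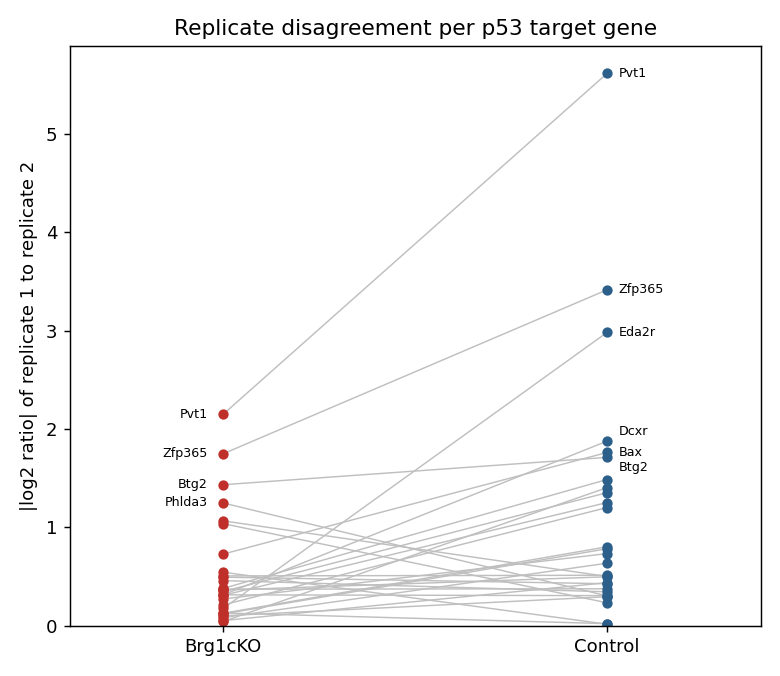
Absolute log2 ratio of replicate 1 to replicate 2 for each p53 target gene with reads in all 4 libraries, in the Brg1cKO-labelled libraries (left, red) and the controls (right, blue), with lines joining the same gene. The controls reach higher values, with Pvt1 the widest in both groups.

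Upstream of these targets, Trp53, the gene for p53 itself, stood at 158 and 150 CPM in the Brg1cKO-labelled libraries, against 98.5 and 112 CPM in the controls. Mdm4, which binds p53 and silences it, stood at 150 and 146 CPM against 206 and 203 CPM. Usp7, a deubiquitinase that stabilises Mdm2 and p53, stood at 288 and 280 CPM against 336 and 433 CPM. The groups were apart for all 3, with log2 fold changes of 0.55 ± 0.225 for Trp53, -0.47 ± 0.186 for Mdm4 and -0.44 ± 0.169 for Usp7 (SE; unadjusted p = 0.0438, 0.0388 and 0.0355, adjusted p = 0.379, 0.368 and 0.368, edgeR). These were the 3 of 33 tested regulators with an unadjusted p under 0.05, 1 higher and 2 lower (beside 7.66% and 4.8% of all genes), and 0 passed. With DESeq2 they passed (adjusted p = 0.0251, 0.00244 and 0.0183), where 14.6% of all genes did. When a library was left out, the log2 fold change ranged from 0.46 to 0.63 for Trp53, from -0.49 to -0.45 for Mdm4 and from -0.60 to -0.26 for Usp7.

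The other 30 regulators tested had an unadjusted p of 0.05 or more. Pml, a scaffold of nuclear bodies that helps activate p53, stood at 44.1 and 53.6 CPM in the Brg1cKO-labelled libraries and 19.1 and 30.1 CPM in the controls (adjusted p = 0.463, edgeR). The acetyltransferase genes Ep300 and Crebbp, coactivators of p53, lay lower in both Brg1cKO-labelled libraries than in either control, at 280 and 230 CPM against 367 and 283 CPM for Ep300 and at 182 and 207 CPM against 260 and 222 CPM for Crebbp. Neither passed (adjusted p = 0.561 and 0.613, edgeR). When a library was left out, the log2 fold change ranged from 0.70 to 1.34 for Pml, from -0.55 to -0.15 for Ep300 and from -0.44 to -0.19 for Crebbp. The damage kinases Atm and Atr overlapped between groups, at 67.5 and 90.3 CPM against 90.1 and 74.8 CPM for Atm and at 56.5 and 52.8 CPM against 77.3 and 54.4 CPM for Atr. Of the p53 relatives, Trp63 overlapped at 21.3 and 12.4 CPM against 15.5 and 6.58 CPM. Trp73 stood at 9.90 and 7.48 CPM in the Brg1cKO-labelled libraries and at 0.195 and 5.15 CPM in the controls. For Trp73 the gap between the controls was wider than the gap from the higher control to the lower Brg1cKO-labelled library. Control replicate 1 held 3 reads of Trp73, and its log2 fold change ranged from 0.76 to 5.42 when a library was left out. The checkpoint kinase gene Chek2 stood at 30.8 and 34.2 CPM against 10.1 and 29.4 CPM, with a range of 0.15 to 1.67. Both Brg1cKO-labelled libraries lay above both controls for 7 of the 33 regulators (21.2%, beside 26.3% of all genes) and below both for 6 (18.2%, beside 17.8%). Over the 33 regulators the median log2 fold change was 0.03, the same as over all genes tested to 2 decimals.

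Further known targets of p53, outside the list of 31, gave a similar picture. Of 31 tested, 18 log2 fold changes were positive and 13 negative with a median of 0.07, and at an unadjusted p under 0.05 there were 3 higher (9.68%, beside 7.66% of all genes) and 2 lower (6.45%, beside 4.8%), with 0 passing. Tigar, a fructose bisphosphatase that slows glycolysis, stood at 32.6 and 23.7 CPM in the Brg1cKO-labelled libraries, against 3.05 and 4.14 CPM in the controls. The groups were far apart, at a log2 fold change of 2.97 ± 0.777 (SE, unadjusted p = 0.00614, adjusted p = 0.308, edgeR). Sesn3, the remaining sestrin, stood at 130 and 150 CPM against 184 and 311 CPM, so that of the 3 sestrins Sesn1 lay above the controls, Sesn3 below and Sesn2 across them. Rps27l, a ribosomal protein paralog that p53 induces, stood at 59.0 and 41.5 CPM against 17.5 and 23.1 CPM, and Tob1, an antiproliferative relative of Btg2, at 26.4 and 24.6 CPM against 58.4 and 49.7 CPM. The groups were apart for both, and neither passed (adjusted p = 0.368 for each, edgeR). When a library was left out, the log2 fold change ranged from 2.73 to 3.18 for Tigar and from 1.04 to 1.55 for Rps27l. The range was -1.14 to -0.41 for Sesn3 and -1.21 to -0.96 for Tob1. DESeq2 called all 4, where it called 14.6% of all genes. These 4 were named for the smallest p of their list in the same libraries, so neither result is separate support.

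In the wider apoptosis machinery, 10 of 27 tested genes lay on the positive side and 17 on the negative side, the median log2 fold change was -0.24, and 0 passed. The 4 genes with the smallest p were split. Birc2, an inhibitor of apoptosis, stood at 28.4 and 30.8 CPM in the Brg1cKO-labelled libraries and 64.4 and 104 CPM in the controls, and the caspase gene Casp2 at 64.4 and 76.0 CPM against 159 and 90.5 CPM. Mcl1, a guardian of the Bcl-2 family, stood at 454 and 454 CPM against 351 and 346 CPM, and Cycs, the cytochrome c that triggers the apoptosome, at 36.1 and 41.8 CPM against 15.4 and 11.0 CPM. An inhibitor and a caspase thus lay lower, and a survival protein and a death effector higher. When a library was left out, the log2 fold change ranged from -1.81 to -1.14 for Birc2 and from -1.19 to -0.36 for Casp2. The range was 0.35 to 0.40 for Mcl1 and 1.32 to 1.82 for Cycs. These genes were picked for their small p in the same libraries, so the ranges are no separate support. Of 17 tested CDK inhibitors, cyclins and their partners, 8 were positive and 9 negative. The CDK inhibitor Cdkn1c stood at 437 and 470 CPM against 338 and 320 CPM, and cyclin E1, Ccne1, at 49.1 and 76.4 CPM against 27.3 and 21.9 CPM, neither passing (adjusted p = 0.353 and 0.368, edgeR). Both passed without Control replicate 1 (0.00144 and 0.00129) and without Control replicate 2 (0.014 and 0.0145).

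**Figure D5:**
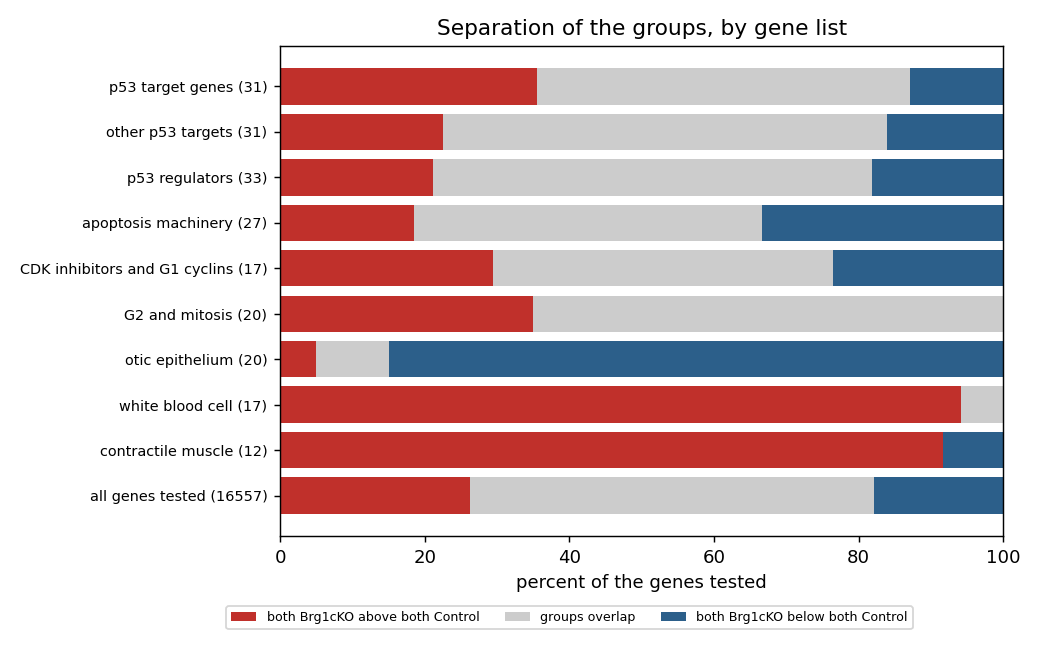
Percent of the tested genes of each list for which both Brg1cKO-labelled libraries lay above both controls (red), below both (blue) or across them (grey), with the number tested in brackets. The p53 target genes had 35.5% above and 12.9% below, beside 26.3% and 17.8% for all genes tested. Over the 27 members not fixed by the filter, 25.9% lay above and 14.8% below. Genes fixed by the filter were not taken out of the shares over all genes. The otic epithelium and white blood cell lists lay mostly to a side, with 17 of 20 below and 16 of 17 above.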

How the data were processed

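The files as deposited by the authors hold unnormalised counts of reads per gene under Ensembl identifiers, 1 table per library. The protocol in the labels gives random-primed, stranded SMART-seq libraries read as 75-base single ends. HISAT2, HTSeq, DESeq2 and mm10 are named, per the submitters' processing notes, without role or version, and whether counting used strand is not stated. Lines that name no gene were left out, which kept 64.0% and 63.7% of records in Brg1cKO and 48.2% and 49.3% in Control. Symbols came from GENCODE M21 and windows from RefSeq.

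Counts were scaled by TMM and tested with edgeR 4.0.16 (R 4.3.3; filterByExpr minimum count 10; robust quasi-likelihood F-test; Benjamini-Hochberg over 16557 genes). DESeq2 1.42.0, limma 3.58.1 voom, other scalings, filters and moderation, thinned libraries, a replicate block and leaving out each library were alternatives. The fits were tested on simulated data. Replicates differed beyond read-counting error, with chi-square per degree of freedom of 44.0 in Brg1cKO and 119 in Control. Intervals and floors from counts cover counting error only, since reads carried no molecular identifiers. The 31 members and the other lists were chosen with earlier results of these data known. Named are all members, Smarca4, some of the regulators tested, picked by no stated rule, and of each other list up to 4 genes with the smallest p and up to 3 with the highest CPM.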

Additional observations from a re-analysis of the deposited data

How the results depend on the processing

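In the shallowest library, Control replicate 1, a total of 3 reads equals 0.195 CPM, and lower levels could not be measured there. The count over all genes tested was 5, and became 6 with RLE scaling, 417 with every gene of at least 1 count, 10 with a minimum count of 50, 2422 with DESeq2, 54 with limma voom, 62 with the newer edgeR moderation, and 140 with the replicate number as a block. It ranged from 33 to 3519 when a library was left out. Whether the replicate numbers mark a pairing is not stated in the labels. The differences between replicates 1 and 2 of the groups were uncorrelated across genes (r = 0.00516 over 16557 genes). That cannot settle the question, because a small shared effect could be hidden by the spread between replicates. The block called 0 members. Of the p53 targets, 0 were called in the test reported, 1 (Psrc1) with every gene of at least 1 count, 8 with DESeq2 (5 of the 27 not fixed in direction by the filter), and between 0 and 8 when a library was left out. At an unadjusted p under 0.05 there were 7, against 11 with DESeq2, 4 with voom and 4 with the block. Over all 16557 genes tested the same counts were 2063, 4014, 2013 and 1393. The 7 members include Fas and Ano3, which are fixed by the filter. The median log2 fold change of the p53 targets ranged from 0.17 to 0.43 over the left-out libraries. The number above the controls ranged from 13 to 18 and the number below from 5 to 12, where a lone library overlaps less easily. These counts include members fixed by the filter. The shares over all genes were not taken in those settings, so the counts say nothing particular to the members. The median of the regulators was 0.10 with the block and ranged from 0.018 to 0.16 when a library was left out.

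The log2 fold changes of 13 named genes changed sign in at least 1 setting, among them Pvt1 (-1.03 as reported), Bbc3 (-0.73), Abhd4 (0.51) and Zfp365 (-0.43). Aen was 0.034 with upper quartile scaling, 0.18 with voom, 0.048 with the newer moderation, 0.034 in thinned libraries and 0.11 with the block. Zfp365 was 0.32 with voom and 0.14 with the block, and Pvt1 was 0.71 and 0.38. When a library was left out, the range was -0.35 to 0.71 for Trp53inp1, -1.24 to 0.033 for Bbc3, -0.46 to 0.30 for Zmat3, -0.85 to 0.52 for Sesn2, -0.50 to 0.72 for Aen, -0.40 to 0.63 for Perp, -1.08 to 0.90 for Btg2, -1.55 to 2.11 for Zfp365, -2.46 to 3.61 for Pvt1, -0.30 to 0.48 for Gtse1, -0.046 to 1.38 for Abhd4, -0.28 to 0.14 for Atm and -0.52 to 0.011 for Atr. The cause of these changes was not tested. Over all 31 members, log2 fold changes kept their direction and side of the threshold in 320 of 338 cases over settings with all libraries and in 93 of 123 over left-out libraries.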
